A study of Mus musculus with 33 samples.

Results

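The cerebral cortex of mice labelled as lacking both Mir7a1 and Mir7b (Mir7DKO) was compared with wild-type cortex of the same experiment. The libraries were chosen by their labels: 3 Mir7DKO and 4 wild-type (WT) cortex libraries of experiment 2, which are 7 of the 33 libraries of the series. All genes of the deposited count table were considered, and 13754 of its 38393 features had enough counts to be tested. The series profiled polyadenylated RNA of cerebellum and cortex in wild-type mice, in mutants of the long noncoding RNA Cyrano and in Mir7DKO mice, and cortex was profiled in experiment 2 only. Every mouse used here was a male C57Bl/6J mouse aged 1 month. The submitters describe the replicates as biological, but the labels do not say whether littermates were used or whether cortex and cerebellum came from the same mice, so p-values measure the spread between these libraries. The deletion is not restricted to a cell type by its label, and the label does not name the remaining miR-7 gene, Mir7-2, as deleted. In bulk cortex, fewer cells of a type and less RNA per cell cannot be told apart.

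Library totals ran from 6.89 to 10.46 M counts, and no pair of replicates agreed within sampling noise. The tissue label was checked in the 14 libraries of experiment 2. Of 9 markers shared by projection neurons, the excitatory output neurons of cortex, 8 were higher in every cortex library than in any cerebellum library. The remaining 1 was lower in every cortex library. By the same measure 12 of 15 upper layer markers were higher and 3 lower, and 13 of 17 deep layer markers were higher and 2 lower. All 15 cerebellar neuron markers were lower in every cortex library than in any cerebellum library.

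MicroRNAs guide Argonaute proteins to messenger RNAs that pair with the seed, bases 2 to 8 from the microRNA's 5′ end, and loss of a microRNA is expected to relieve its targets. In the brain miR-7 belongs to a network of noncoding RNAs. Cyrano carries a site that pairs with miR-7 well beyond the seed and directs its destruction, and miR-7 acts on Cdr1as, a circular RNA with many seed matches. The mature strands of the deleted genes are shown because every target search below rests on their shared seed, in capitals, as RefSeq gives them for GRCm38.p6.
mmu-miR-7a-5p: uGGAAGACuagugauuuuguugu
mmu-miR-7b-5p: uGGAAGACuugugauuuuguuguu
Counted from the 5′ end of miR-7a, the strands differ by the substitution A10U and by 1 extra base at the 3′ end of miR-7b. The Mir7-1 gene (labelled Mir7a1) encodes miR-7a-5p at chr13:58392841-58392863 on the minus strand. Mir7-2 encodes the identical strand at chr7:78888295-78888317 on the plus strand, and Mir7b lies at chr17:56243017-56243040 on the plus strand.

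A perfect seed match with an A opposite base 1 reads GTCTTCCA in a transcript (8 bases). Shorter matches read GTCTTCC or TCTTCCA (7 bases) and TCTTCC (6 bases). The Cyrano site is shown because it is the extensively paired site of the network, and the second Cyrano match because it has the same capitals and little further pairing. The others are the longest matches in the annotated 3′ UTRs of genes that changed in Mir7DKO cortex, with the match in capitals (GRCm38, GENCODE annotation).
Cyrano, chr2:119602132-119602161, plus strand, exon: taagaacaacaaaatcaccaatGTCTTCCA
Cyrano, chr2:119599942-119599971, plus strand, exon: gacttcaggttttttttttaatGTCTTCCA
Padi2, chr4:140950425-140950454, plus strand, 3′ UTR: gggtccaatcattcagcacagaaTCTTCCA
Cd59a, chr2:104114398-104114427, plus strand, 3′ UTR: gtagaacacctataggttatataaTCTTCC
Cd93, chr2:148437302-148437331, minus strand, 3′ UTR: atagacgccctgaaaacatctgtcTCTTCC
Beyond the seed, the first Cyrano site held an unbroken run of 13 bases complementary to miR-7a, pairing its bases 11 to 23. In the second Cyrano site the longest such run was 3 bases, and it was 5 in Padi2 and 4 in each of Cd59a and Cd93.

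Of 13754 genes tested, 6 differed between Mir7DKO and WT cortex (0.0436%, edgeR quasi-likelihood test with Benjamini-Hochberg adjustment, adjusted p under 0.05). Wdfy1, Cd59a and Cd93 were higher (0.0218%), and Padi2, Trim37 and Ttr were lower (0.0218%). Most of the transcriptome stayed close to WT levels: the median absolute log2 change was 0.07, and of 9732 genes with a mean of at least 10 CPM (read counts per scaled library total, CPM being the unit of all levels below) 98.2% had a 95% interval of the log2 change that lay wholly within 0.5 of 0. At an unadjusted p under 0.05 there were 793 genes (5.77%). The count of 6 became 11 without WT 1 and 4 without any other single library except WT 2, where it was 8. The DESeq2 alternative also gave 6 genes (0.0258% of 23281), of which 5 were shared, with Epas1 in place of Cd93. The authors' deposited table holds those same 6 genes at an adjusted p under 0.05.

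**Figure D1:**
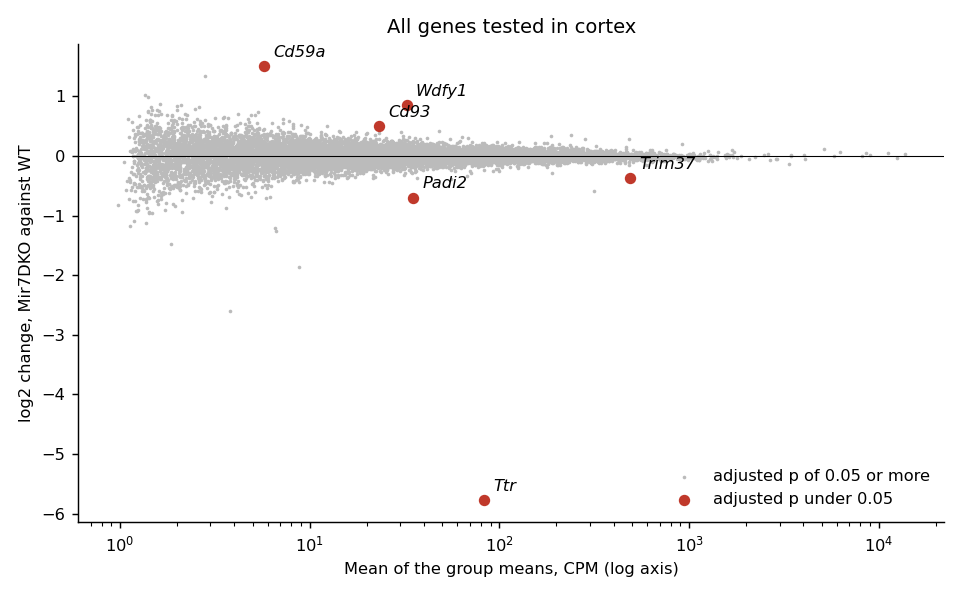
log2 change in Mir7DKO against WT cortex (vertical axis) against the mean CPM of both groups (horizontal, log axis) for the 13754 genes tested, with the 6 genes past the threshold in red. Of the red points, Ttr lies lowest at -5.78. Not all red points stand clear of the other genes: uncalled Enpp2, at -0.60, lies lower than Trim37.

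Wdfy1 encodes an endosomal FYVE-domain protein that serves as an adaptor in Toll-like receptor signalling, and lies at chr1:79702262-79776143 on the minus strand. Its level was 23.0, 23.8, 23.6 and 21.8 CPM in the WT libraries and 43.0, 42.0 and 40.9 CPM in the Mir7DKO libraries. Each Mir7DKO library stood far above every WT library, with little spread on either side. The log2 change was 0.86 ± 0.07 (SE), a 1.82-fold rise (adjusted p = 5.2e-06). Its annotated 3′ UTR of 3249 bases held no 6-base miR-7 match, whereas 76.3% of 1667 tested genes with a 3′ UTR within 20% of that length held one. Mrpl44 overlaps the start of Wdfy1 on the opposite strand, and its log2 change was 0.01 ± 0.12.

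Cd59a encodes a membrane-anchored inhibitor of the terminal complement complex (chr2:104095801-104115354, plus strand). It was a low-level transcript, at 2.34, 2.62, 3.95 and 3.00 CPM in WT and 8.86, 9.04 and 7.66 CPM in Mir7DKO. Again the groups were well apart. The rise was 2.85-fold (log2 change 1.51 ± 0.19, adjusted p = 6.6e-04). Its paralogue Cd59b had 0 to 4 counts per library, too few to test. The 3′ UTR of Cd59a, 1174 bases long, held the 6-base match shown above and no longer one. Of 1870 tested genes with a 3′ UTR of like length, 45.4% held a match of 6 to 8 bases.

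Cd93, a transmembrane glycoprotein best known from endothelial cells (chr2:148436640-148443563, minus strand), was the smallest of the rises. Its level was 19.5, 18.7, 18.2 and 20.05 CPM in WT and 28.9, 26.3 and 26.5 CPM in Mir7DKO. The groups did not overlap, and the log2 change was 0.50 ± 0.08 (adjusted p = 0.027). This call was the least stable among the genes that rose: it passed the threshold in 7 of 17 alternative analyses (adjusted p from 1.6e-04 to 0.32, DESeq2 0.20), at a log2 change of 0.46 to 0.53 throughout. In its 3′ UTR of 4603 bases the longest match was 6 bases, and 86.9% of 993 genes with a 3′ UTR of like length held a match of 6 to 8 bases.

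Padi2 encodes a peptidylarginine deiminase, which converts arginine in proteins to citrulline and is known from oligodendrocytes (chr4:140906344-140952586, plus strand). It fell from 41.1, 45.5, 46.3 and 41.6 CPM in WT to 25.6, 27.9 and 26.9 CPM in Mir7DKO. All Mir7DKO libraries lay below all WT libraries. The log2 change was -0.70 ± 0.07 (adjusted p = 1.3e-04), a level 0.616 times that of WT. Among the 6 called genes, only Padi2 held a 7-base miR-7 match, at base 524 of its 2662-base 3′ UTR, and its RNA was lower, not higher, in Mir7DKO cortex. Of 1921 tested genes with a 3′ UTR of like length, 39.6% held a match of 7 or 8 bases. The mature oligodendrocyte markers, measured in the same libraries, had a median log2 change of -0.05, with 13 of 16 below 0 and none called, and their summed level was 7938 to 8882 CPM in WT and 7830 to 8306 CPM in Mir7DKO. Their part in the fall of Padi2 was not tested.

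Trim37, a ubiquitin ligase of the TRIM family (chr11:87127077-87220683, plus strand), was the most abundant gene called. Its level was 590.1, 524, 553 and 547 CPM in WT and 419, 412 and 446 CPM in Mir7DKO. Every Mir7DKO value was below the lowest WT value. The log2 change was -0.38 ± 0.05 (adjusted p = 0.0014), a level 0.769 times that of WT. Its 3′ UTR held no 6-base match, whereas 67.2% of 2059 tested genes with a 3′ UTR of like length held a match of 6 to 8 bases. Without WT libraries 3 and 4 the log2 change was -0.39 and the adjusted p 0.081, with 3 genes called in all. Ska2, a spindle and kinetochore protein gene that ends 2.44 kb before Trim37 on the same strand, had a log2 change of -0.27 ± 0.11 (edgeR adjusted p = 0.85). It was looked up after the values were seen.

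Ttr encodes transthyretin, the thyroid hormone carrier that the choroid plexus secretes. Its level was 48.8, 3.31, 286 and 317 CPM in WT and 3.05, 3.90 and 1.94 CPM in Mir7DKO. WT 3 and 4 were high, WT 1 was intermediate and WT 2 lay within the Mir7DKO range, so the groups overlapped although the fitted log2 change was -5.78 ± 1.01 (adjusted p = 0.041). The call was lost when WT 3 or WT 4 was left out (adjusted p = 0.19 and 0.13), when any 1 of the 3 Mir7DKO libraries was left out (0.33 to 0.55) and with a robust fit (0.85), and 9 of 17 alternatives kept it.

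**Figure D2:**
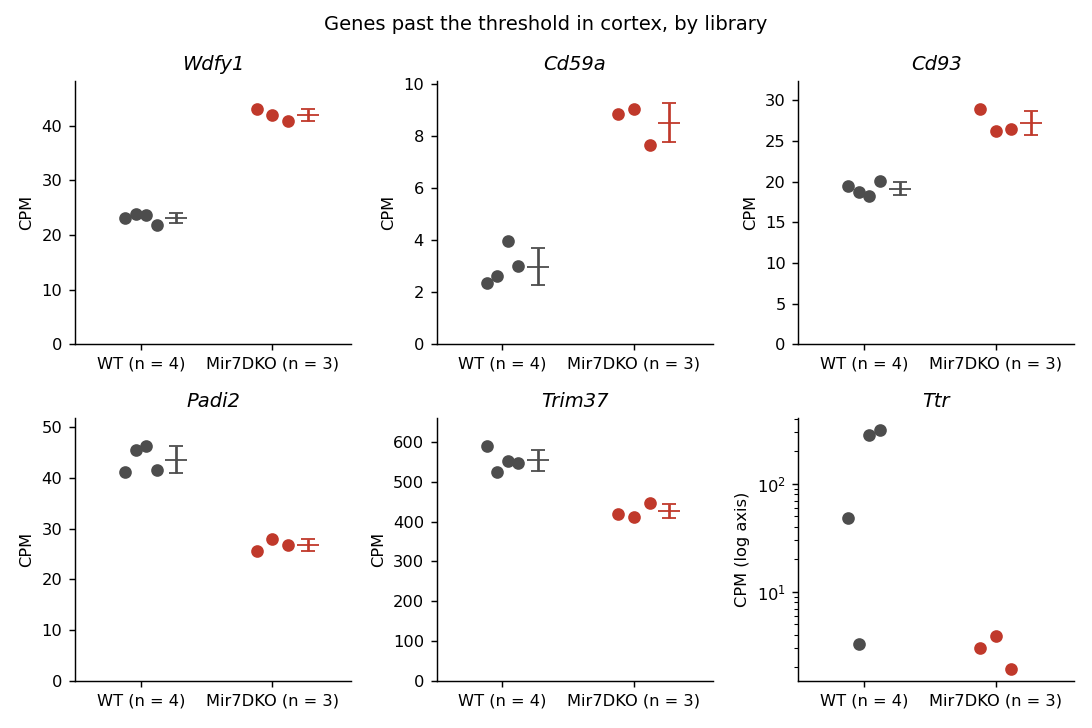
CPM of the 6 genes past the threshold in each cortex library (points; bars give mean ± SD; Ttr on a log axis without a mean). Groups are clearly apart for Wdfy1, Cd59a, Cd93, Padi2 and Trim37, whereas the Ttr values of 4 WT libraries spread from 3.31 to 317 CPM and overlap the Mir7DKO range.

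The other choroid plexus markers followed the same library pattern as Ttr. Of the 15 markers listed, 7 passed the count filter, Ttr among them. All 7 had a negative log2 change (median -1.21, against 0.0036 over all genes). The 1 called was Ttr itself, and 5, Ttr included, were at an unadjusted p under 0.05 (2.7% of all genes were lower at that p). Kl, the anti-ageing membrane protein klotho, measured 5.85, 3.58, 23.2 and 22.6 CPM in WT and 3.34, 3.90 and 3.88 CPM in Mir7DKO. Enpp2, a secreted lysophospholipase that other brain cells also make, measured 294, 239, 439 and 538 CPM in WT and 242, 248 and 258 CPM in Mir7DKO. For both genes WT 3 and 4 were high and WT 2 was at the Mir7DKO level. Neither was called, but without WT 2 the edgeR adjusted p was 0.011 for Kl and 0.013 for Enpp2, and without WT 1 it was 0.029 for Kl. The summed level of the list was 367, 259, 812 and 958 CPM in WT and 263, 271 and 280 CPM in Mir7DKO, and WT 2 was the lowest library of all. Between 0 and 3 of the 15 markers had no count in a cortex library. With the summed level of those 12 markers (log2) as a covariate in cortex, chosen after seeing the data, edgeR still called Ttr. Cd93 was no longer called, and Nr1d1 was. Whether choroid plexus tissue is the source of these differences was not tested.

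The 5 genes next in order of p in each direction did not pass the threshold. Above WT were Mid1, Aqp4, Egr1, Eng and Ptprz1, and below it Epas1, Plagl1, F5, Sgk1 and Hapln4. The groups did not overlap for any of these 10 genes. They were picked by small p in the same libraries, so the lack of overlap adds no support of its own. Over all tested genes, 6.99% had groups that did not overlap (3.66% higher and 3.33% lower in Mir7DKO). Epas1, the hypoxia-inducible factor HIF-2α, came closest. Its level was 202, 228, 212 and 195 CPM in WT and 176, 173 and 162 CPM in Mir7DKO, all 3 below the lowest WT value, with a log2 change of -0.29 ± 0.06 (adjusted p = 0.13; 0.030 without WT 1; DESeq2 0.015; 0.015 in the authors' deposited table).

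Plagl1, an imprinted zinc finger gene, measured 40.6, 41.2, 43.6 and 40.9 CPM in WT and 30.9, 35.3 and 29.9 CPM in Mir7DKO (log2 change -0.37 ± 0.08, adjusted p = 0.17). Sgk1, a glucocorticoid-inducible kinase, measured 54.7, 59.0, 64.1 and 73.5 CPM in WT and 45.9, 50.1 and 48.3 CPM in Mir7DKO (-0.38 ± 0.08, 0.28). Hapln4, a link protein of perineuronal nets, measured 114, 105, 114 and 98.5 CPM against 88.1, 91.4 and 91.2 CPM (-0.26 ± 0.06, 0.49). For each of these genes every Mir7DKO library lay below every WT library. F5, coagulation factor V, had 20, 17, 65 and 88 counts in WT and 10, 4 and 15 in Mir7DKO, with the same high WT libraries as Ttr (-2.61 ± 0.55, adjusted p = 0.21). Without WT 1 the adjusted p was 0.0054 for F5 and 0.014 for Sgk1, and without WT 2 it was 0.011 for F5.

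Among those above WT, Mid1, a microtubule-associated ubiquitin ligase at 1.55 ± 0.77 CPM in WT (SD, n = 4) and 4.09 ± 0.95 CPM in Mir7DKO (SD, n = 3), had the largest difference and the lowest level (log2 change 1.34 ± 0.30, adjusted p = 0.34). Aqp4, the water channel of astrocyte endfeet, was at 193, 193, 194 and 188 CPM in WT and 224, 224 and 216 CPM in Mir7DKO (0.21 ± 0.05, 0.36). Egr1, an activity-induced transcription factor, was at 227, 197, 183 and 231 CPM against 314, 245 and 244 CPM (0.35 ± 0.08, 0.49). Eng, the endothelial co-receptor endoglin, was at 29.8, 26.0, 31.5 and 31.5 CPM against 37.0, 37.5 and 36.6 CPM (0.32 ± 0.08, 0.49). The log2 changes of Aqp4, Egr1 and Eng were smaller than those of Wdfy1 and Cd59a. Ptprz1, a receptor phosphatase of glial cells, was at 213 to 227 CPM in WT and 243 to 256 CPM in Mir7DKO (0.19 ± 0.05, 0.57).

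Experiment 2 also compared 4 WT with 3 Mir7DKO cerebellum libraries, where 28 of 14146 genes tested were called (0.198%). Wdfy1, Cd59a, Padi2 and Trim37 were called there too, each in the direction seen in cortex. Wdfy1 measured 26.5, 31.3, 26.2 and 33.4 CPM in WT cerebellum and 50.4, 50.4 and 51.1 CPM in Mir7DKO cerebellum, with no overlap (log2 change 0.78 ± 0.08). Cd59a measured 6.85, 6.29, 5.62 and 6.26 CPM against 18.6, 14.8 and 16.0 CPM, again with no overlap (1.40 ± 0.13). For Trim37 the values were 399.7, 417, 391.6 and 395 CPM against 322, 294 and 338 CPM (-0.33 ± 0.05), and the Mir7DKO libraries were again all lower. Padi2 fell from 32.8, 35.8, 39.0 and 35.2 CPM to 28.2, 24.1 and 27.97 CPM (-0.42 ± 0.08).

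The difference between the 2 tissues was tested directly, as the change in cortex minus the change in cerebellum. It was 0.07 for Wdfy1 (95% interval -0.16 to 0.31), 0.11 for Cd59a (-0.34 to 0.57) and -0.05 for Trim37 (-0.20 to 0.10). For Padi2 it was -0.28 (-0.51 to -0.05), which did not pass the adjustment (edgeR adjusted p = 0.99). Cd93 was not called in cerebellum (0.33 ± 0.10, adjusted p = 0.28), and its difference was 0.17 (-0.10 to 0.45).

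**Figure D3:**
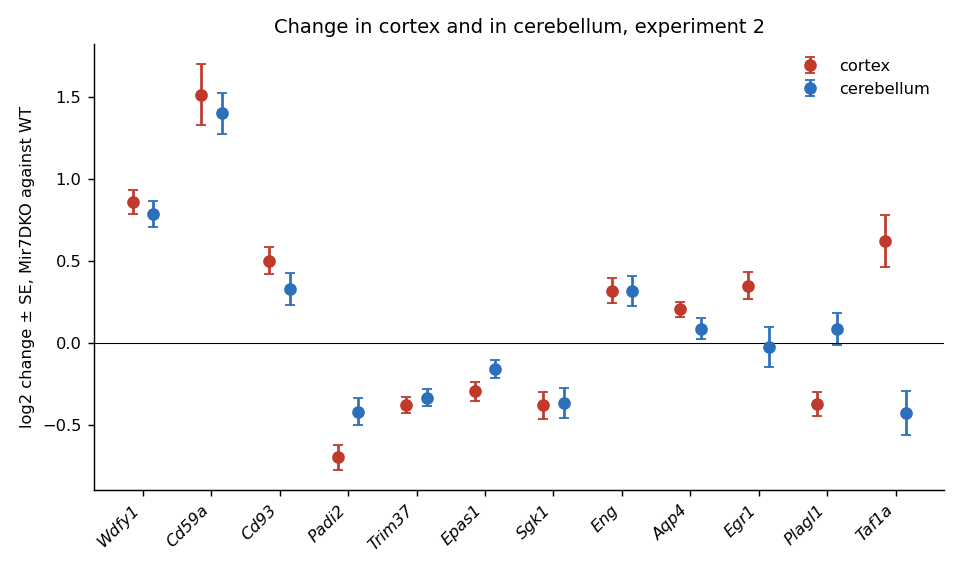
log2 change ± SE in cortex (red) and cerebellum (blue) of experiment 2 for 5 of the called genes and for others named in the text. Cortex and cerebellum values lie close together for Wdfy1 (0.86 and 0.78) and Trim37 (-0.38 and -0.33), and on opposite sides of 0 for Taf1a (0.62 and -0.43).

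Over all genes, the change in cortex differed from that in cerebellum for 23 of 14886 genes tested (0.155%): 1 was higher in cortex and 22 were lower. The 1 higher was Taf1a, a subunit of the RNA polymerase I selectivity factor. In cortex it measured 6.37, 4.82, 5.65 and 5.59 CPM in WT and 10.5, 7.80 and 8.14 CPM in Mir7DKO. In cerebellum it measured 11.3, 11.6, 11.1 and 9.10 CPM in WT and 7.32, 8.98 and 7.66 CPM in Mir7DKO. Mir7DKO values were thus all above WT in cortex and all below it in cerebellum, with log2 changes of 0.62 ± 0.16 and -0.43 ± 0.13 that were not called on their own, and a difference of 1.05 ± 0.21 (adjusted p = 0.025). Leaving out single libraries gave an adjusted p of up to 0.12. In cortex the call of Taf1a was lost without WT 3 or 4 or without any 1 Mir7DKO library. In cerebellum it was lost without WT 1, 2 or 3 or without Mir7DKO 1.

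Of the 22 lower genes, the 8 with the smallest p were Ttr, Kl, Kcne2, F5, Mfrp, Tmem72, Aqp1 and Enpp2. Kcne2, Mfrp, Tmem72 and Aqp1 failed the count filter in each tissue alone. They passed it over the 14 libraries only through the high libraries, so their calls add no support of their own. Tmem72 was at 4.32 and 4.98 CPM in WT cortex 3 and 4 and at 6.79 and 4.61 CPM in Mir7DKO cerebellum 1 and 2. It was at 0.40 CPM or less elsewhere. Ttr, Kl, Kcne2, Tmem72, Aqp1 and Enpp2 are on the choroid plexus marker list. Their pattern joined 2 library effects of opposite sign. Ttr, for example, was at 580.4 and 360.2 CPM in Mir7DKO cerebellum 1 and 2 but at 3.47 CPM in Mir7DKO cerebellum 3, and at 2.76 to 8.70 CPM in WT cerebellum. High libraries were therefore WT in cortex and Mir7DKO in cerebellum, and each of these groups also held a low library. The count depended on single libraries. In cortex it was 4 without WT 3, 1 without WT 4, and 11, 1 and 4 without Mir7DKO 1, 2 and 3. In cerebellum it was 5, 10, 6 and 9 without WT 1, 2, 3 and 4, 5 without Mir7DKO 1 and 48 without Mir7DKO 3. With a choroid plexus index as a covariate, edgeR called 0 genes (612 at an unadjusted p under 0.05), and that index includes several of the genes concerned.

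Experiment 1B, a separate set of 4 WT and 4 Mir7DKO cerebella, had 1 called gene of 14031 (0.00713%). Cd59a measured 6.07 to 6.80 CPM in WT and 10.0 to 16.6 CPM in Mir7DKO there, with no overlap (log2 change 1.01 ± 0.15, adjusted p = 0.13). Wdfy1 was at 30.3 to 35.8 CPM in WT and at 48.6, 50.8, 31.6 and 31.0 CPM in Mir7DKO, so that only 2 of its 4 Mir7DKO libraries stood above WT. For Trim37 the change there was -0.01 ± 0.05, for Padi2 -0.10 ± 0.14 and for Cd93 -0.20 ± 0.11, none of them called. The authors compared libraries within an experiment only, and no test between experiments was made.

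The Mir7 genes had almost no counts in these libraries. Mir7-1 had 1 count over the WT libraries and 1 over the Mir7DKO libraries, Mir7b had 0 and 2, and Mir7-2 had none in either. Mature microRNAs are not polyadenylated, so these counts do not check the genotype labels. Hnrnpk, whose transcript carries Mir7-1, measured 139, 137, 136 and 135 CPM in WT and 144, 139 and 137 CPM in Mir7DKO (log2 change 0.03 ± 0.05), and the groups overlapped.

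Cyrano (1700020I14Rik, chr2:119594297-119607502, plus strand) measured 896, 822, 855 and 859 CPM in WT and 961, 906 and 1084 CPM in Mir7DKO. All 3 Mir7DKO libraries lay above the WT libraries, by a narrow margin at the closest, and the change was not called (0.20 ± 0.05, adjusted p = 0.64). Cdr1as counts gave 505, 351, 377 and 505 CPM in WT and 468, 447 and 673 CPM in Mir7DKO. Only Mir7DKO 3 stood above WT (0.29 ± 0.12, adjusted p = 0.85). The authors' deposited table gives 0.28 with an adjusted p of 1.0 for it. Circular RNAs lack a poly(A) tail, and how much of Cdr1as such libraries capture was not tested. C230004F18Rik, the noncoding locus around Cdr1as, was at 13.6 ± 2.1 CPM in WT (SD, n = 4) and 13.6 ± 2.1 CPM in Mir7DKO (SD, n = 3), and Cdr1 had no count.

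Genes with a miR-7 match were described as a class. Of 13028 tested genes with an annotated 3′ UTR, 27.4% held a match of 7 or 8 bases in the longest one. Leaving out genes whose normalised counts averaged under 50, the median log2 change was 0.0044 for the 496 genes with an 8-base match. It was 0.0056 for 1177 genes with GTCTTCC, 0.010 for 1395 with TCTTCCA and 0.0031 for 5303 with no match of 6 bases. The curves of these classes lay almost on top of each other.

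Taken as 1 class, 3068 genes with a match of 7 or 8 bases had a median of 0.0073, and 113 of them (3.68%) were above WT at an unadjusted p under 0.05, against 2.85% of genes with no match and 3.19% of all 10924 genes at that level. Only 1 of the 3068 was called, Padi2, and it was lower. The 814 genes with at least 2 such matches had a median of 0.010. In single libraries, the median level of site genes relative to genes with no match, on a log2 scale centred on each gene's mean, was -0.0009, -0.010, 0.0052 and -0.0015 in WT and -0.0039, -0.0085 and 0.015 in Mir7DKO. The Mir7DKO mean exceeded the WT mean by 0.0027, less than the WT SD of 0.0064, and only Mir7DKO 3 lay above the WT range. Without Mir7DKO 3, the median log2 change of site genes minus that of genes with no match was -0.0024. The classes also differed in 3′ UTR length, with a median of 2495 bases in site genes and 815 in genes with no match.

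**Figure D4:**
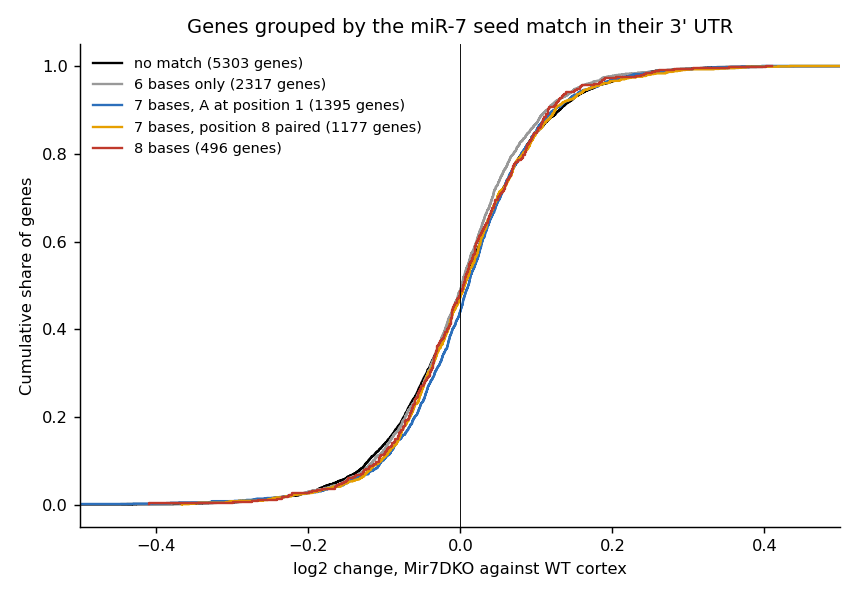
Cumulative share of genes (vertical axis) by log2 change in Mir7DKO against WT cortex (horizontal axis), for genes without a miR-7 match and with matches of 6, 7 or 8 bases. The curves nearly coincide, with medians from 0.0017 (6 bases) to 0.010 (TCTTCCA).

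None of the 496 genes with an 8-base match passed the threshold. Smyd5 had the smallest p among them and was below WT (42.7 against 36.4 CPM, log2 change -0.23 ± 0.07, adjusted p = 0.76). Next came Gli3, the Hedgehog pathway transcription factor, above WT (17.6 against 21.7 CPM, 0.31 ± 0.09, 0.80). Both were named after their values were seen. Of the 26 genes listed as reported miR-7 targets, 25 were tested and none was called, with a median of 0.02, 15 positive and 10 negative (51.6% of all tested genes were positive). Cnot8, a deadenylase subunit, had the smallest p, at 32.2 to 36.4 CPM in WT and 29.1 to 34.4 CPM in Mir7DKO (-0.14 ± 0.08, adjusted p = 0.90). Cyclin E1 (Ccne1) was at 9.96 to 12.5 and 11.9 to 13.0 CPM (0.19 ± 0.12, 0.90). The most abundant, the kinase Pak1, was at 587 to 670.4 and 542 to 634 CPM (-0.07 ± 0.06, 0.93). All 3 overlapped between the groups.

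A total of 37 lists of pathway genes and cell type markers held 643 different tested genes, of which 2 were called, Cd59a and Ttr (0.0436% of all genes were called). The medians of 29 lists lay between -0.1 and 0.1, and the summed level of 36 lists overlapped between WT and Mir7DKO. The exception was the astrocyte list, at 7135, 7087, 7281 and 6909 CPM in WT and 7494, 7532 and 7673 CPM in Mir7DKO. Its glutamate transporter Slc1a2 supplied most of that sum, at 4758 to 5056 CPM in WT and 5225 to 5491 CPM in Mir7DKO (log2 change 0.11 ± 0.04, adjusted p = 0.85). Over the 13 astrocyte markers the median was 0.03, with 9 positive, 4 negative and none called. At an unadjusted p under 0.05, 3 were above WT (3.07% of all genes). The groups were apart for 2 markers above WT and 2 below it (3.66% and 3.33% of all genes).

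**Figure D5:**
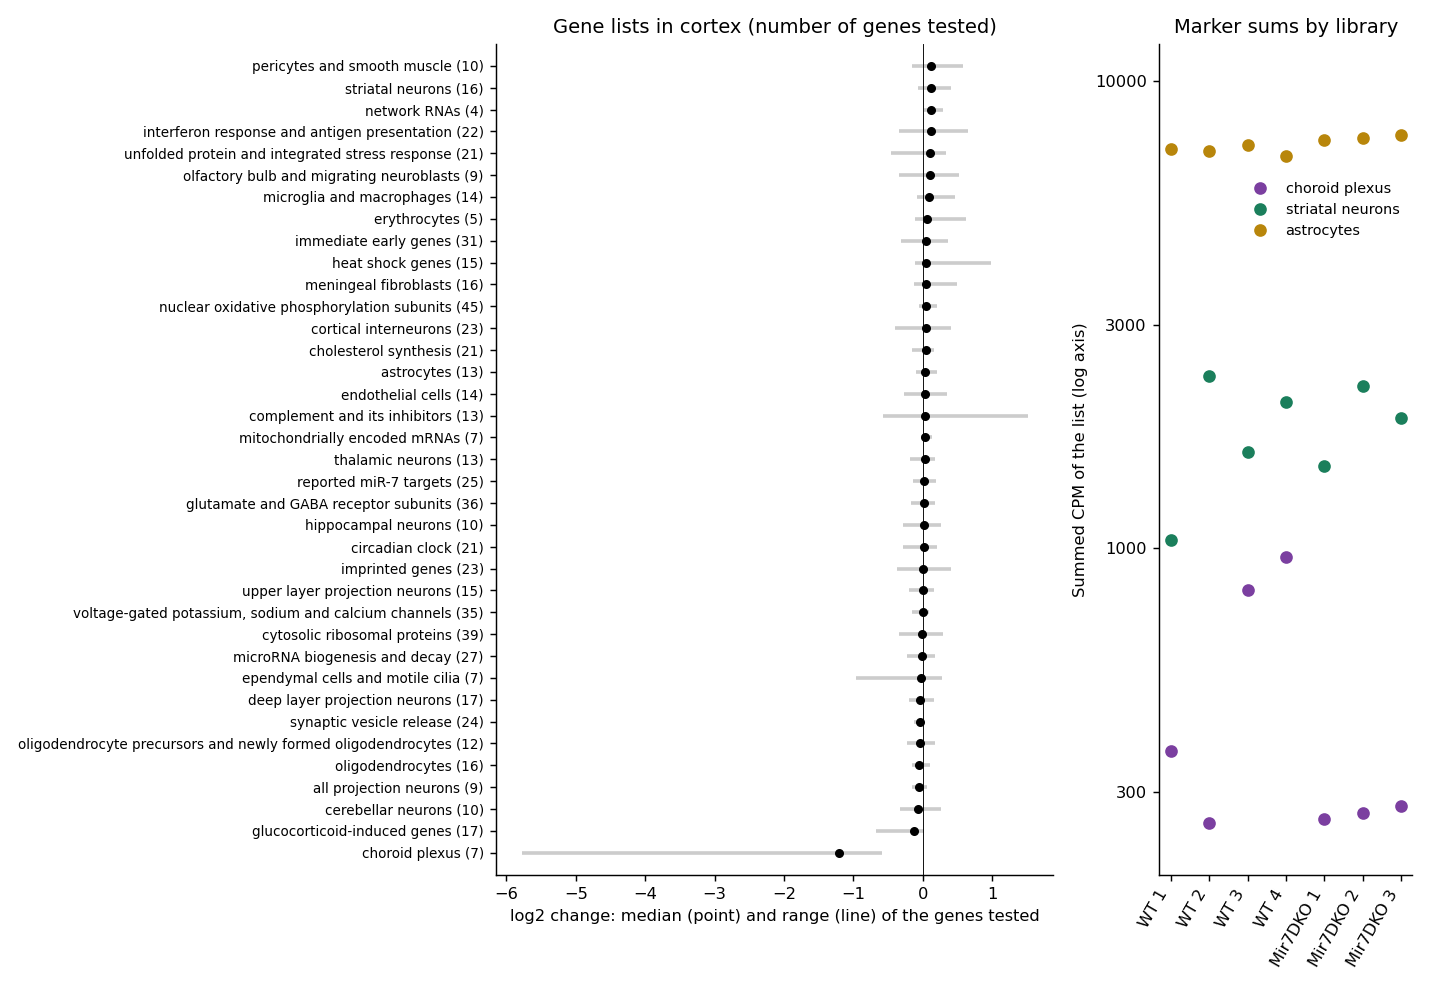
Left, median (point) and range (line) of the log2 change of the tested members of 37 lists; right, summed CPM (log axis) of 3 marker lists in each library. Medians cluster at 0 apart from choroid plexus (-1.21), whose sum is high in WT 3 and 4, and the striatal sum varies from 1042 to 2333 CPM within WT.

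The glucocorticoid-induced genes had the next lowest median, -0.13, with 16 of 17 members negative, none called and 3 below WT at an unadjusted p under 0.05 (2.7% of all genes were lower at that p, and 51.6% of all genes were positive). Besides Sgk1, Map3k6, a stress-activated kinase, was at 3.38 to 3.95 CPM in WT and 1.26 to 3.20 CPM in Mir7DKO (-0.67 ± 0.26, adjusted p = 0.85). Klf9, the most abundant member, was at 205 to 225 and 203 to 222 CPM (-0.03 ± 0.05). The list's sum was 757 to 840 CPM in WT and 731 to 761 CPM in Mir7DKO, with WT 1 inside the Mir7DKO range.

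The 31 immediate early genes had a median of 0.05, with none called and 4 above WT at an unadjusted p under 0.05 (3.07% of all genes). Apart from Egr1, the smallest p was that of Fosl2, an AP-1 subunit, at 29.8 to 36.7 CPM in WT and 36.2 to 48.8 CPM in Mir7DKO (0.29 ± 0.10, adjusted p = 0.82). Homer1, a postsynaptic scaffold, was the most abundant at 207 to 293 and 249 to 389 CPM (0.28 ± 0.11, 0.85). Only the Egr1 groups were apart (3.66% of all genes were apart and higher).

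The list for unfolded proteins and the integrated stress response had members on both sides, with a median of 0.11 and none of 21 called. At an unadjusted p under 0.05, 3 were above and 3 below WT (3.07% and 2.7% of all genes). Atf4, the transcription factor of the integrated stress response, was at 96.9, 95.2, 106 and 101 CPM in WT and 86.4, 88.7 and 77.8 CPM in Mir7DKO (-0.25 ± 0.06, adjusted p = 0.58). The endoplasmic reticulum chaperone Hspa5 was at 154, 154, 170.0 and 182 CPM against 191, 181 and 249.8 CPM (0.33 ± 0.09, 0.61), and Mir7DKO 3 was highest. Canx, calnexin, was the most abundant, at 459.6 to 477 and 461 to 496 CPM (0.02 ± 0.04).

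Interferon and antigen presentation genes had a median of 0.11, with 17 of 22 positive, none called and 4 above WT at an unadjusted p under 0.05 (3.07% of all genes). Ifitm3, a restriction factor of the cell membrane, was at 4.66 to 6.63 CPM in WT and 7.55 to 8.47 CPM in Mir7DKO (0.49 ± 0.16, adjusted p = 0.81). Ifit3 was at 1.95 to 3.55 and 3.98 to 4.95 CPM (0.66 ± 0.22, 0.83). For both genes the groups were apart (3.66% of all genes were apart and higher), whereas B2m, the light chain of class I molecules, overlapped at 75.1 to 80.6 and 80.0 to 88.1 CPM (0.07 ± 0.06). Besides Cd59a, the 12 other tested complement genes were not called, and the list's median was 0.03.

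None of the 27 genes of microRNA biogenesis and decay was called (median -0.01). Ago3, an Argonaute, was at 86.4 to 100.4 CPM in WT and 99.1 to 114 CPM in Mir7DKO (0.17 ± 0.07, adjusted p = 0.85). Zswim8, a ubiquitin ligase adaptor needed for microRNA decay directed by RNAs such as Cyrano, was at 124 to 145 and 118 to 125 CPM (-0.12 ± 0.06, 0.87). Tnrc6b, a scaffold of the silencing complex, was at 169.9 to 188 and 180.2 to 199.7 CPM (0.10 ± 0.05). All overlapped between the groups.

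Neuronal lists also lacked called genes. The 24 synaptic vesicle genes had a median of -0.04 with 20 negative. Vamp1 was at 127 to 135 CPM in WT and 116 to 124 CPM in Mir7DKO (-0.13 ± 0.05, adjusted p = 0.85). Snap25 was at 2812 to 3057 and 2658 to 2909 CPM (-0.06 ± 0.05). Both encode components of vesicle fusion, and of the pair only Vamp1 was apart (3.33% of all genes were apart and lower). Upper layer projection neuron markers had a median of 0.01, and in them Whrn (-0.20 ± 0.07), Pou3f2 (0.17 ± 0.07) and Mef2c (-0.07 ± 0.06) were not called. Deep layer markers had a median of -0.04, and Tbr1 (-0.13 ± 0.07) and Fezf2 (-0.19 ± 0.12), transcription factors of deep layer identity, were not called.

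Striatal neuron markers can report tissue beneath the cortex, though Tac1 is also on the cortical interneuron list. These striatal markers varied more within WT than between genotypes. Their sum was 1042, 2333, 1603 and 2059.6 CPM in WT and 1499, 2219 and 1901 CPM in Mir7DKO. WT 1 was lowest and WT 2 highest. The median was 0.12 with 14 of 16 positive, and none was called. Tac1, a neuropeptide precursor, was at 14.3 to 34.9 CPM in WT and 27.9 to 43.2 CPM in Mir7DKO (0.41 ± 0.19, adjusted p = 0.85). Pdyn, another one, was at 13.9 to 34.3 and 24.98 to 34.4 CPM (0.20 ± 0.18). Pde10a, a phosphodiesterase, was at 195 to 498 and 268 to 452 CPM (0.06 ± 0.20). WT 1 and Mir7DKO 1 were the lowest library of their group for each of the 3.

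Vascular and immune markers are among the cell type lists, and Cd93 and Eng are known from endothelial cells. The 14 endothelial markers had a median of 0.03 with 7 above and 7 below 0, none called and 4 above WT at an unadjusted p under 0.05 (3.07% of all genes). Their sum was 491 to 525 CPM in WT and 513 to 551 CPM in Mir7DKO. Cldn5, a tight junction protein, was at 15.7 to 22.3 and 22.4 to 27.03 CPM (0.35 ± 0.11, adjusted p = 0.80). Flt1, a VEGF receptor and the most abundant of the list, was at 103 to 112 and 121 to 124 CPM (0.16 ± 0.05, 0.81). The part of endothelial cells in the rise of Cd93 was not tested. Pericyte and smooth muscle markers had a median of 0.12 with 9 of 10 positive and none called, among them Vtn (0.17 ± 0.07) and Rgs5 (0.13 ± 0.07). Of 14 microglia and macrophage markers, 12 were positive and none called (median 0.09), among them Ctss (0.20 ± 0.07), Tmem119 (0.27 ± 0.12) and Csf1r (0.03 ± 0.05). Mature oligodendrocyte markers included Mag (-0.10 ± 0.06), Cnp (-0.09 ± 0.05) and Mbp (-0.06 ± 0.05), which encode myelin proteins.

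None of the 6 called genes lies on chromosome 13 or 17, which carry the deleted genes. Within 500 kb of Mir7-1, 11 genes were tested and 0 were called (1 at an unadjusted p under 0.05; edgeR), and log2 changes ran from -0.10 for Spock1 to 0.36 for Rmi1. Within 500 kb of Mir7b, 27 genes were tested and 0 were called (0 at an unadjusted p under 0.05), and near Mir7-2 the numbers were 10, 0 and 0. DESeq2 called no gene in these windows either. Around Wdfy1, Cd59a, Cd93, Padi2 and Trim37, 47 neighbours were tested in windows of the same size, and 0 were called (3 at an unadjusted p under 0.05, chosen after the values were seen). Over all genes tested, 5.77% were at that p.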

How the data were processed

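Members, lists and tests were chosen with earlier results of these data known. The authors deposited whole-number counts per gene beside a normalised signal and the output of their own DESeq2 run (log2 fold change and error, Wald score, p-value and adjusted p-value). STAR 2.4, HTSeq 0.6.1p1, DESeq2 1.10, mm10 and GRCm38 are named in the submitters' processing notes. Per the labels' protocols, libraries were stranded and polyA-selected. The sources used here do not give the annotation, the strand setting or the handling of multiply matching reads, which makes overlapping genes and near-identical copies uncertain.

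The 7 cortex libraries were fitted with edgeR 4.0.16 (R 4.3.3) without covariates: genes kept by filterByExpr at 10 counts, TMM scaling, the quasi-likelihood F-test, Benjamini-Hochberg adjustment over all genes tested, and a threshold of 0.05. The change in cortex minus that in cerebellum was tested over 14 libraries. The SE is the log2 change divided by the root of F. CPM values use TMM-scaled totals and do not compare genes of different length. The biological coefficient of variation was 5.56%. DESeq2 1.42.0, other scalings and filters, a block by number and left-out libraries were alternatives. The steps were tested on simulated data.

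Named genes are all called genes, the 5 next smallest p in each direction, network RNAs, up to 8 interaction genes per direction, and, for 18 of 37 lists, called members or else the 2 smallest p and the highest level. The other 19 lists are given by counts. Values of 1 gene under this rule are not reported here. Of 733 listed symbols, 731 matched.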

Additional observations from a re-analysis of the deposited data

Results flagged for a closer look

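Single wild-type libraries stood apart from the other 3 for 5 of 61 genes examined in this way, where chance gives about 1 in 20, and for none of 18 list sums. WT 1 was high for Mef2c (1319 CPM, the others 1075 to 1112), Fezf2 (35.6 CPM, the others 24.7 to 25.1) and Vtn (61.1 CPM, the others 53.0 to 53.5). WT 4 was low for B2m (75.1 CPM, the others 79.8 to 80.6) and Flt1 (103 CPM, the others 110.1 to 112).

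The difference between Mir7DKO and WT libraries was not the same in cortex and cerebellum, by the test of that difference, for the 9 genes of this kind named in the report. With a choroid plexus covariate no gene passed the test of that difference (0 in edgeR, 612 at an unadjusted p under 0.05). Ttr alone passed it without WT cortex 4 or without Mir7DKO cortex 2. The log2 change in cortex minus that in cerebellum was 1.05 for Taf1a. It was -11.79 for Ttr, -5.53 for Kl, -5.65 for F5 and -2.04 for Enpp2. For Kcne2 (-8.40), Mfrp (-9.47), Tmem72 (-10.12) and Aqp1 (-5.93), some libraries had no count or very few, so the fitted size depends on the prior count and is no bound. Every gene of this set other than Taf1a was high in WT cortex 3 and 4 and in Mir7DKO cerebellum 1 and 2.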

How the results depend on the processing

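Wdfy1, Padi2 and Cd59a passed the threshold in 17 of 17 alternatives, Trim37 in 16, Ttr in 9 and Cd93 in 7, all without a change of direction. The number of genes called, 6 as reported, was 48 with no count filter, 19 with a replicate block and 3 without WT 3 and 4, the latter chosen after seeing the data, and 4 to 11 when 1 library was left out. The block also brought Egr1, Epas1, F5, Hapln4, Homer1, Hspa5, Kl and Tac1 past the threshold. With no filter these 8 and Cyrano, Cdr1as, Enpp2, Mid1, Plagl1 and Sgk1 passed. Called list members, 2 as reported, numbered 15 with no filter, 9 with the block, 1 with the robust fit, 1 with 14 libraries in 1 fit and 1 without WT 3 and 4, and 1 to 5 with 1 library left out. The cause was not tested. The median of site genes minus that of genes with no match ran from -0.0024 to 0.0095 with 1 library left out. The interaction count, 23 as reported, was 13 with DESeq2, 0 with the choroid plexus index (chosen after seeing the data), 27 with the replicate block, and 1 to 48 with 1 library left out. With 1 library left out, the log2 change ran from -0.021 to 0.35 for Pdyn, from -0.15 to 0.26 for Pde10a, from -0.10 to 0.10 for C230004F18Rik and from -0.012 to 0.041 for Canx. Signs changed without WT 1 (Pdyn, Pde10a and C230004F18Rik), without Mir7DKO 2 (Pde10a, -0.11) and without Mir7DKO 3 (C230004F18Rik and Canx). None of these was called.

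Same-numbered WT and Mir7DKO cortex libraries deviated together with correlations of 0.16, 0.14 and 0.08, and each correlated best with its own number, a hint from the data and not the design. Between cortex and cerebellum, each Mir7DKO cortex library correlated best with the Mir7DKO cerebellum library of its number (0.1, 0.12 and 0.07). No WT cortex library did so (-0.06, -0.03, 0.01 and -0.01). The labels do not say what a number stands for, and no pairing was used in the values reported. Depth limits low genes: 98.2% of genes with at least 10 CPM, but 78.9% of all tested genes, had a 95% interval within 0.5 of 0.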

Other observations

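The 19 lists not described gene by gene in the report held no called gene (edgeR). Of 45 nuclear oxidative phosphorylation subunits, 35 had a positive log2 change (median 0.05), with 1 above WT at an unadjusted p under 0.05. Of 15 heat shock genes, 12 were positive (median 0.05), with 2 above WT at that p. Over all genes tested, 51.6% were positive, and 3.07% were above WT at that p. Cytosolic ribosomal proteins had 16 of 39 positive (median -0.01). Of 23 cortical interneuron markers, 17 were positive (median 0.05), and markers of oligodendrocyte precursors and newly formed oligodendrocytes had 9 of 12 negative (median -0.04). The summed level of each of these lists overlapped between WT and Mir7DKO.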
